A study of Mus musculus with 69 samples.

Results

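The airway secretory and ciliated cell genes are a set of 10 gene symbols that mark the conducting airway epithelium of the mouse lung: Scgb1a1, Scgb3a1, Scgb3a2, Muc5b, Muc5ac and Bpifa1 for secretory cells, and Foxj1, Tekt1, Dnah5 and Rsph1 for ciliated cells. Members were found as the array probes whose accession maps to one of these symbols in the RefSeq gene table. This gave 13 probes for 9 of the 10 gene symbols, among 18660 genes with a value on every array. No accession mapped to Scgb3a2, which was not analysed here. The arrays were made from lungs of female C57BL/6 mice that were 5 to 7 weeks old on arrival and were acclimatised for 1 to 3 weeks. Each mouse received a single intratracheal instillation of 18, 54 or 162 µg of NRCWE-025 or NRCWE-030, which are 2 nano-TiO2 (titanium dioxide nanomaterials), or of the vehicle alone, which was 2% serum in water. Lungs were collected after 24 h (day 1) or 28 d (day 28), and RNA came from a small frozen section of the lung, for which the labels name no region. There were 14 groups: 1 vehicle group on each day, and 3 doses of 2 materials on each day, with 5 mice in 13 groups and 4 mice in the group given 162 µg of NRCWE-025 and collected at day 28. The same vehicle mice served both materials, so the comparisons of the materials with vehicle on 1 day are not independent of each other.

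The conducting airways are lined mainly by secretory (club) cells and ciliated cells, with few mucus-filled goblet cells in healthy mice. Club cells release secretoglobins, small proteins of the airway lining fluid, and enzymes that metabolise inhaled chemicals, while mucins and the BPI-fold protein Bpifa1 belong to the secretions of the larger airways and glands. Ciliated cells beat mucus out of the lung, and the forkhead factor Foxj1 switches on the genes for the axoneme, the microtubule core of the motile cilium. In bulk lung RNA a lower level of such a gene can mean fewer airway cells in the sample or less RNA per cell, and these cannot be told apart.

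All values are log2 ratios of lung (Cy5) over Universal Mouse Reference RNA (Cy3) on 1 array per mouse, 69 arrays in all. They compare 1 probe or gene between arrays and not one gene with another, since each depends on the gene's level in the reference. The probes of Scgb1a1 (A_51_P128575), Scgb3a1 (A_51_P110341), Muc5b (A_51_P122071), Bpifa1 (A_51_P202331), Foxj1 (A_51_P456870) and Rsph1 (A_51_P373901) and both probes of Tekt1 (A_51_P328889 and A_51_P328890) were well above background in lung on all 69 arrays. The probes of the remaining genes disagreed. For Muc5ac, A_51_P102883 was well above background on 67 arrays and A_51_P426130 on 35, and their deviations from the group means had r = 0.217. For Dnah5, A_52_P485891 was well above background in lung on 69 arrays and in the reference on 0, A_52_P548463 on 46 in lung, and A_51_P175027 on 9. A gene's value was the median over its probes, so the Dnah5 value, with a median over arrays of 0.35, followed the dimmer probes and was flatter than A_52_P485891, whose median was 4.02. The reference was itself dim for several probes, and was well above background on 33 of 69 arrays for A_51_P328890 of Tekt1, 38 for Bpifa1, 48 for Muc5b and 49 for Rsph1, so the size of these log ratios also depends on a dim Cy3 signal. Lung markers were detected throughout. In lung, 6 of 6 alveolar type 2, 5 of 5 alveolar type 1 and 4 of 4 endothelial markers with a value were well above background on every array. So were 5 of 6 heart muscle and 6 of 6 airway smooth muscle markers, so detection alone does not settle tissue identity.

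RefSeq promoter sequences (GRCm38.p6) were at hand for 4 of the members, and the 250 bases before the start are shown because these genes varied together between mice of the same group. The capitals mark matches on either strand to 3 short motifs: the X-box core GTTGCC bound by RFX factors of ciliated cells, the forkhead core TAAACA or CAAACA, and the NKX2-1 core CTCAAG. The motifs do not overlap in these windows. For Tekt1 the first of 2 listed starts is shown, and the second held none of the 3 motifs.
Scgb3a1, chr11:49663345-49663594 (plus strand): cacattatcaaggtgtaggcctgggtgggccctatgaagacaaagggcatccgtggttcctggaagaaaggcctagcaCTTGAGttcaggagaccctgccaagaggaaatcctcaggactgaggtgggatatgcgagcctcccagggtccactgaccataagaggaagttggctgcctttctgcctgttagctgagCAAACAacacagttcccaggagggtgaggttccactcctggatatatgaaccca
Bpifa1, chr2:154142630-154142879 (plus strand): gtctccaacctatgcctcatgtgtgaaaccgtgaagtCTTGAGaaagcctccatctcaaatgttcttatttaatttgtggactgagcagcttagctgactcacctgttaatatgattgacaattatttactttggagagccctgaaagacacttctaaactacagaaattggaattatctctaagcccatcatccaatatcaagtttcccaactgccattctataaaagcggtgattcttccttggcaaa
Tekt1, chr11:72361883-72362132 (minus strand): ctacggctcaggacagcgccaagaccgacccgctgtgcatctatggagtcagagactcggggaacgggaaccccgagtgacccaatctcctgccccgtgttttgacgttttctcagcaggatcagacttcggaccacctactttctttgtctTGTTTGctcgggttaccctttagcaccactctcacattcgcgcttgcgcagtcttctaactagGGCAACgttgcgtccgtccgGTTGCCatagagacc
Dnah5, chr15:28203516-28203765 (plus strand): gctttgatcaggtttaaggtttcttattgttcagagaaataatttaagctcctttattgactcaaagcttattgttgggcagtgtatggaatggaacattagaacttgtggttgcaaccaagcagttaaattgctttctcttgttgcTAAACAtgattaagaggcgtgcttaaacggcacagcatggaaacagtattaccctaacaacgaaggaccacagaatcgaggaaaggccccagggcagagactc
Tekt1 held 2 X-box cores, which began 35 and 15 bases before its start and lay on opposite strands, and 1 forkhead core. Dnah5 held 1 forkhead core and no X-box core of these letters. Scgb3a1 and Bpifa1 each held 1 NKX2-1 core, and Scgb3a1 also 1 forkhead core. Of all 32851 promoters in the table, 10.4% held the X-box core, 13.3% the NKX2-1 core and 8318 promoters a forkhead core within the same 250 bases, so each match is a description and no test of binding.

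**Figure D1:**
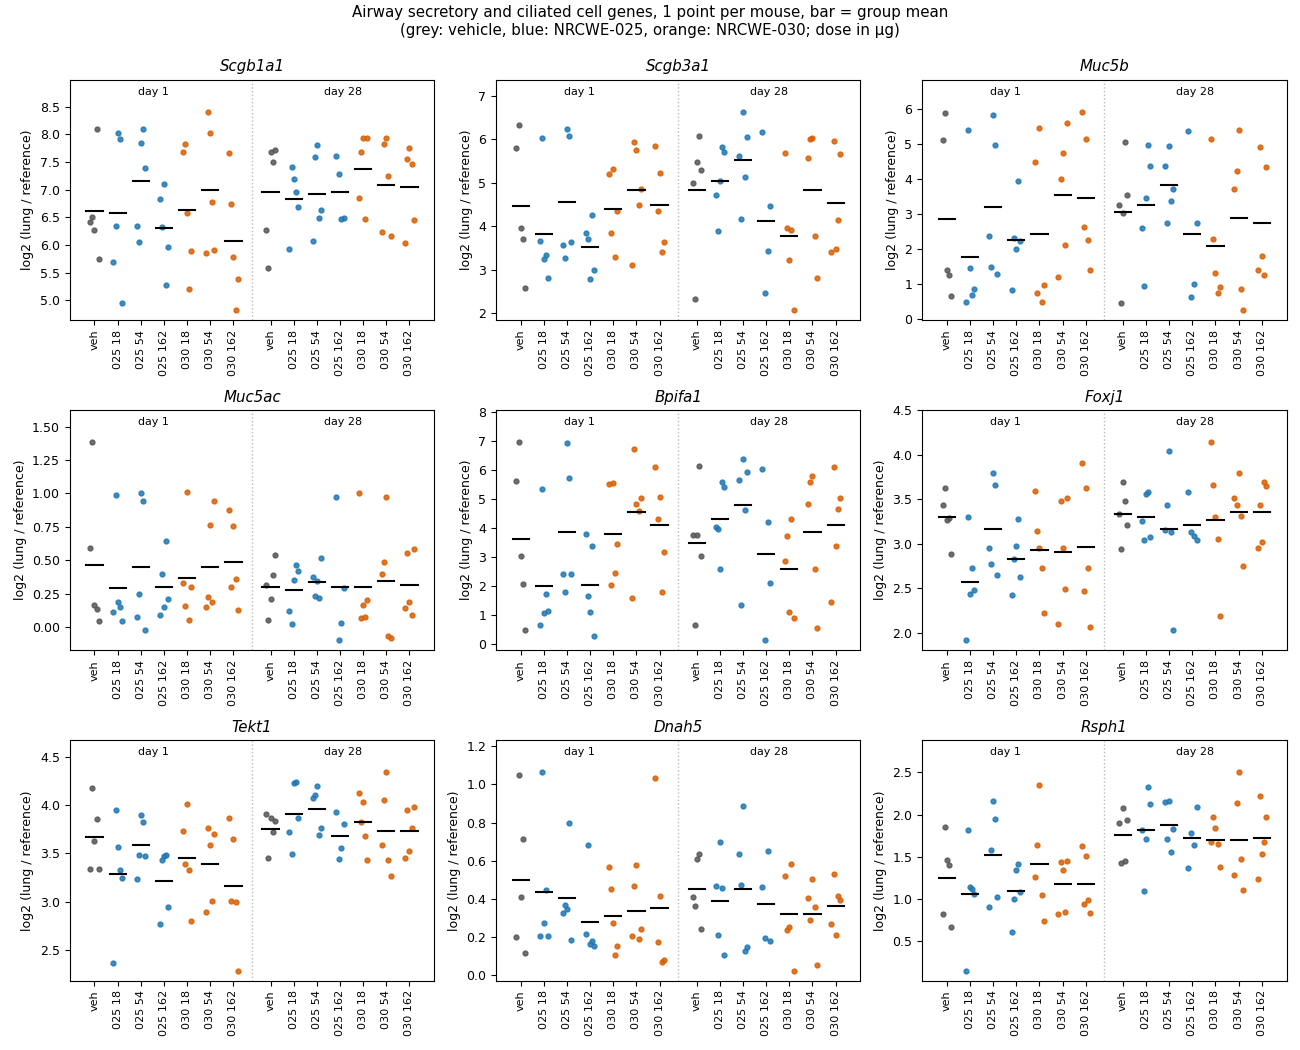
Log2 ratio of lung over reference for the 9 measured genes, 1 point per mouse with a bar for the group mean, by material and dose in µg on day 1 (left of the dotted line) and day 28 (right). The points of treated and vehicle groups overlap in every panel, and within 1 group Muc5b and Bpifa1 span several log2 units.

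Among the secretory genes, values already differed widely between arrays of vehicle lungs. Scgb1a1 encodes the main club cell secretory protein. Its log2 ratios in the 5 vehicle mice of day 1 were 6.42, 6.50, 6.27, 8.10 and 5.74, and at day 28 they were 6.27, 5.59, 7.69, 7.50 and 7.72. The level was high in all vehicle mice, and the days overlapped. Bpifa1 gave 5.64, 6.99, 3.05, 2.09 and 0.48 at day 1 and 3.78, 0.67, 3.76, 6.15 and 3.04 at day 28. One mouse of each day was near the level of the reference while another of the same day was more than 5 log2 units above it. Muc5b, the gel-forming mucin of normal airways, gave 5.13, 5.90, 1.42, 1.26 and 0.67 at day 1 and 3.26, 0.48, 3.03, 5.07 and 3.54 at day 28. The highest and the lowest mouse of each day were the same for Muc5b as for Bpifa1. Scgb3a1, a secretoglobin of the larger airways, followed the same order at the ends, with its highest value of 6.33 in replicate 2 and its lowest of 2.58 in replicate 5 at day 1. Muc5ac, the mucin induced in goblet cells, stayed near the reference level as the median of its probes, at 0.46 ± 0.56 (SD, n = 5) at day 1 and 0.30 ± 0.18 (SD, n = 5) at day 28.

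In vehicle mice the log ratios of the ciliated cell genes were steadier than those of Scgb1a1, Scgb3a1, Muc5b and Bpifa1. This did not hold for Muc5ac at day 28, whose SD of 0.18 was below 0.28 for Foxj1 and 0.30 for Rsph1. For Scgb1a1 it did not hold in the lung channel (Cy5) alone. There its SD within all groups was 0.271, against 0.61 for Foxj1, 0.508 for Tekt1, 0.425 for Rsph1 and 0.236 for Dnah5. Foxj1 gave 3.43, 3.63, 3.27, 3.29 and 2.88 in the vehicle mice of day 1 and 3.33, 2.94, 3.70, 3.48 and 3.21 at day 28. These values lay within 1 log2 unit of each other on both days. Tekt1, a filament protein of the axoneme, was at 3.67 ± 0.36 (SD, n = 5) at day 1 and 3.75 ± 0.18 (SD, n = 5) at day 28. Rsph1, a radial spoke protein, was at 1.25 ± 0.49 (SD, n = 5) and 1.76 ± 0.30 (SD, n = 5). For Dnah5, an outer arm dynein heavy chain, the bright probe A_52_P485891 was at 4.15 ± 0.64 (SD, n = 5) and 4.04 ± 0.47 (SD, n = 5), and the median over its probes at 0.50 ± 0.39 (SD, n = 5) and 0.45 ± 0.17 (SD, n = 5).

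The study asked whether the dose of each nano-TiO2 changed lung gene expression. None of the 9 genes passed the test (limma, Benjamini-Hochberg adjusted p below 0.05 over all 18660 genes, two-sided) in the F-test over doses for either material on either day. The lowest adjusted p of a member was 0.435 (Foxj1, unadjusted p = 0.029) for NRCWE-025 at day 1, 0.84 (Tekt1) for NRCWE-030 at day 1, 0.92 (Tekt1) for NRCWE-025 at day 28 and 0.978 (Scgb3a1) for NRCWE-030 at day 28. At unadjusted p below 0.05 the F-tests gave 1, 0, 0 and 0 of the 9 genes. The share of all genes called was also small, at 0.0214% for NRCWE-025 at day 1, 0.959% for NRCWE-030 at day 1, 0.0375% for NRCWE-025 at day 28 and 0.102% for NRCWE-030 at day 28. With so few calls in the background, 0 of 9 members is not a result that sets these genes apart.

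Single doses against vehicle gave the same count. For NRCWE-025 at day 1, 0 of 9 members were called at 18, 54 and 162 µg, beside 0%, 0% and 0.209% of all genes. For NRCWE-030 at day 1, 0 of 9 were called at each dose, beside 0.00536%, 0.0804% and 1.71%. At day 28 the count was 0 of 9 at each dose of NRCWE-025, beside 0.0589%, 0.0268% and 0.0161% of all genes, and 0 of 9 at each dose of NRCWE-030, beside 0.118%, 0.0536% and 0.0965%. Of these 108 differences of a gene at a dose, 1 had an unadjusted p below 0.05, beside 8.25% of all differences over the 18660 genes. In 0 of 108 did all treated mice lie above or all lie below the vehicle mice, beside 1.91% over all genes. That 1 was Foxj1 after 18 µg of NRCWE-025 at day 1, with values of 1.92, 3.30, 2.44, 2.73 and 2.49 against 2.88 to 3.63 in vehicle mice. Its 4 lowest treated mice lay below every vehicle mouse, and replicate 2 lay inside their range. The difference was -0.73 ± 0.24 (SE), with a 95% interval from -1.24 to -0.22, an unadjusted p of 0.00708 and an adjusted p of 0.907 (limma), beside 0 genes called and 954 genes at unadjusted p below 0.05 in that comparison. With the slide as a block the difference was -1.05 (95% interval from -1.80 to -0.29, adjusted p = 0.591 by limma).

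**Figure D2:**
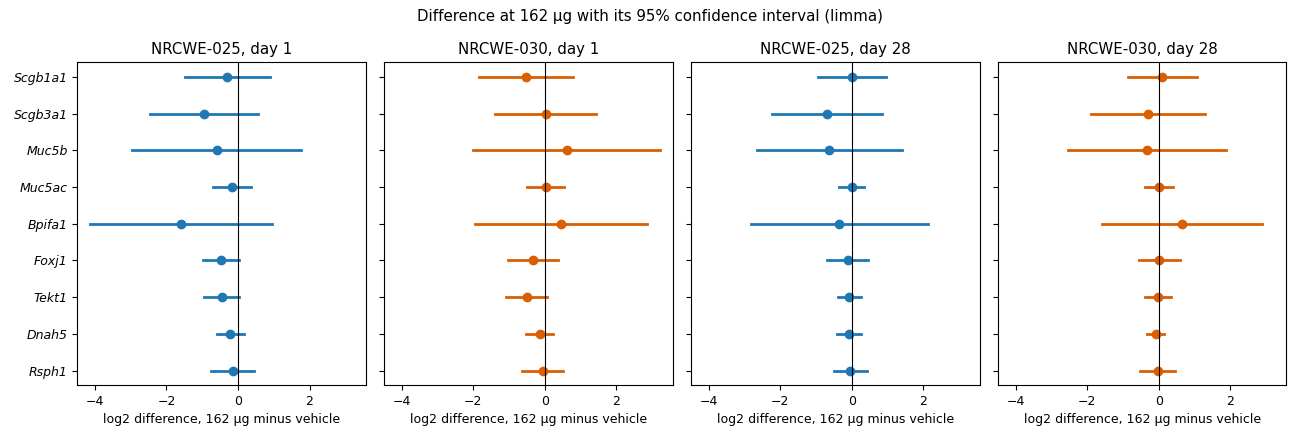
Difference in log2 ratio between 162 µg and vehicle for each gene (point) with its 95% confidence interval (line), by material and day. All 36 intervals include 0, and those of Muc5b and Bpifa1 are the widest.

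At 162 µg the sizes that the data allow differed by gene. After NRCWE-025 at day 1 all 9 members had a lower mean than vehicle at 162 µg and also at 18 µg, but 4 of 9 at 54 µg, and no single difference passed the test. Over the other 9 combinations of material, dose and day, from 2 to 8 of the 9 members were lower. At 162 µg of NRCWE-025 on day 1 the sign of Bpifa1, Scgb3a1, Foxj1 and Tekt1 was kept under each processing alternative, while that of Scgb1a1, Muc5b, Muc5ac, Dnah5 and Rsph1 turned under at least 1. Bpifa1 had the furthest point estimate, with 3.79, 1.66, 1.13, 3.39 and 0.30 after 162 µg of NRCWE-025 at day 1. Of these, 4 lay within the vehicle range of 0.48 to 6.99 and 1 below it. The difference was -1.60 ± 1.21 (SE), with a 95% interval from -4.13 to 0.93, so 5 mice against 5 left its direction unsettled. After NRCWE-030 at day 1, Bpifa1 was at 6.11, 4.33, 5.08, 1.81 and 3.18, all inside the vehicle range. That difference was 0.45 ± 1.15 (SE), and it was 2.09 with the slide as a block and -0.006 in the Cy5 channel alone. Foxj1 and Tekt1 had narrower intervals. Tekt1 differed by -0.45 ± 0.23 (SE, adjusted p = 0.452 by limma) after NRCWE-025 and by -0.51 ± 0.27 (SE, adjusted p = 0.483 by limma) after NRCWE-030 at day 1, and 2 and 3 of the 5 treated mice lay below every vehicle mouse. Over the processing alternatives the first ran from -0.96 (backgrounds as deposited) to -0.04 (scaled between arrays) and the second from -0.52 to -0.21. At day 28 the Tekt1 differences were -0.07 and -0.02, with 95% intervals from -0.39 to 0.25 and from -0.39 to 0.35. Foxj1 differed by -0.47 ± 0.24 (SE) and -0.34 ± 0.33 (SE) at day 1 and by -0.12 and 0.02 at day 28, and the first of these ran from -1.004 (backgrounds as deposited) to -0.11 (scanner log ratio).

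The materials, the days and the vehicle groups were compared in the same way. The F-test of NRCWE-030 against NRCWE-025 over doses called 0 of 9 members at day 1 and 0 of 9 at day 28, beside 0.161% and 0.236% of all genes, with 0 of 54 single differences at unadjusted p below 0.05, and the largest was Bpifa1 at 162 µg on day 1, higher by 2.05 ± 1.19 (SE) with NRCWE-030 (95% interval from -0.34 to 4.43). The effect of 162 µg did not differ by day for any member at the threshold, with 0 of 9 called for NRCWE-025 (0.0589% of all genes) and 0 of 9 for NRCWE-030 (0.198%). Vehicle mice of day 28 against those of day 1 also gave 0 of 9 (0.0375% of all genes). In these 3 comparisons 0 members had an unadjusted p below 0.05. The test for any difference among the 14 groups called 8.35% of all genes and 0 of 9 members, of which 2 had an unadjusted p below 0.05. These were Rsph1 (adjusted p = 0.0956 by limma) and Tekt1 (adjusted p = 0.0999 by limma). For both genes the 7 group means of day 28 all lay above the 7 of day 1. Rsph1 group means ran from 1.06 to 1.53 at day 1 and from 1.70 to 1.88 at day 28, and those of Tekt1 from 3.16 to 3.67 and from 3.68 to 3.96. In vehicle mice alone the difference between days was 0.51 ± 0.27 (SE) for Rsph1 (95% interval from -0.02 to 1.05) and 0.09 ± 0.23 (SE) for Tekt1. Only 1 of the 19 slides held arrays of both days, while 7 of the 11 scan days did. With slide as a random block, 0 of 9 members had an unadjusted p below 0.05 in the test over the 14 groups, with slide as a fixed block 1 of 9, and with scan day as a fixed block 2 of 9. Leaving out 1 mouse took a member past the threshold of this test over 14 groups in 3 cases: Rsph1 was called without replicate 2 of the group given 18 µg of NRCWE-025 (day 1) or without replicate 3 of that given 18 µg of NRCWE-030 (day 1), and Tekt1 without replicate 1 of that given 162 µg of NRCWE-030 (day 1).

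When the 14 groups were ordered by their means, neighbours were close for every gene. For each of the 9 genes all 13 pairs of neighbouring groups overlapped in their values, and so did the lowest group and the highest. Bpifa1 spanned the widest range of group means, from 2.01 after 18 µg of NRCWE-025 at day 1 to 4.80 after 54 µg of NRCWE-025 at day 28. Muc5b and Rsph1 had their lowest and highest means in the same pair of groups, at 1.78 and 3.84 for Muc5b and 1.06 and 1.88 for Rsph1. Scgb1a1 was lowest after 162 µg of NRCWE-030 at day 1 (6.08) and highest after 18 µg of NRCWE-030 at day 28 (7.37).

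Most secretory genes spread widely between arrays of the same group, each array being 1 mouse. The limma p-values set group differences against this spread and do not test the spread itself. It holds differences between mice, between slides and in the reference signal. The SD within groups was 1.95 log2 units for Bpifa1, 1.89 for Muc5b, 1.22 for Scgb3a1 and 0.93 for Scgb1a1, against a median of 0.173 over all 18660 genes. As a description, 99.97% of all genes had a smaller SD than Bpifa1 and 99.72% a smaller SD than Scgb1a1. Over all 69 mice Bpifa1 ran from 0.14 to 6.99, a 115-fold range, and Muc5b from 0.26 to 5.94, a 51.3-fold range. The ciliated genes had an SD of 0.50 (Foxj1), 0.44 (Rsph1) and 0.38 (Tekt1), and the bright Dnah5 probe of 0.697, which are also above most genes. The same mice stood at the ends for many members. Replicate 2 of the group given 18 µg of NRCWE-025 (day 1) was among the 5 highest arrays, relative to its group, for 8 of 9 genes, and replicate 2 of the day 1 vehicle group for 7. Replicate 5 of the group given 54 µg of NRCWE-030 (day 28) was among the 5 lowest for 6 of 9. High and low mice were found in vehicle and treated groups alike.

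**Figure D3:**
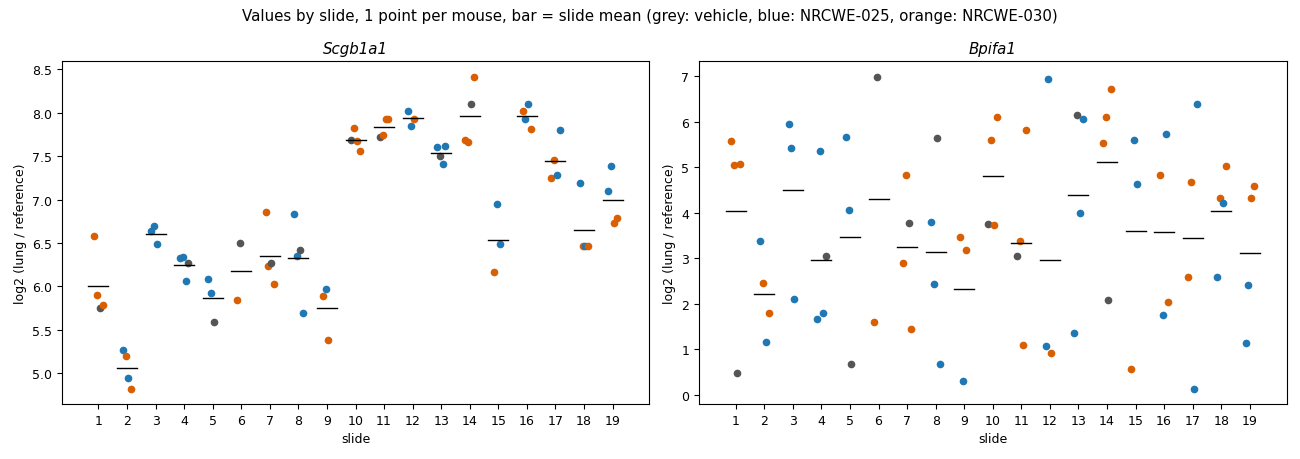
Scgb1a1 and Bpifa1 log2 ratios by slide, 1 point per mouse with a bar for the slide mean. Scgb1a1 arrays of 1 slide lie close together while slides differ by up to 2.91 log2 units, whereas Bpifa1 spreads widely within slides.

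Scgb1a1 differed from the other secretory genes in where its spread lay. Slide means of Scgb1a1 ran from 5.06 (slide 2) to 7.97 (slide 16), while the range within a slide had a median of 0.557. With the slide removed its SD fell from 0.925 to 0.256, and only 0.0107% of all genes had a smaller ratio of the second SD to the first than its 0.276. For Bpifa1 the SD was 1.95 with the slide left in and 2.17 with it removed, for Muc5b 1.89 and 2.03, and for Scgb3a1 1.22 and 1.29, so their spread was no smaller with the slide removed. Foxj1, with 0.503 and 0.421, lay near the ratio of the median gene, 0.817. In the Cy5 channel alone the within-group SD of Scgb1a1 was 0.271 before and 0.265 after the slide was removed. The differences between slides in its log ratio were thus not seen in the lung channel. A Cy3 value, for the reference RNA shared by all arrays, was derived as the Cy5 value minus the log ratio. Its SD for Scgb1a1 was 0.884 before and 0.305 after the slide was removed. Being derived, it is no separate measurement of the reference channel. The derived Cy3 value also spread widely for Scgb3a1 (SD 1.63, and 1.75 with the slide removed) and Bpifa1 (0.994 and 1.04). In the Cy5 channel alone the SD was 2.73 for Scgb3a1 and 2.75 for Bpifa1, both above the SD of their log ratios. The median Cy3 SD over genes with 1 probe was 0.125. The part of the reference signal in the spread of these 2 genes was not tested. Estimated within slides, the 12 Scgb1a1 differences from vehicle ran from -0.33 ± 0.25 (SE, 162 µg of NRCWE-030, day 1) to 0.30 ± 0.19 (SE, 18 µg of NRCWE-025, day 28), with none called. At 162 µg on day 28 the 95% interval within slides was from -0.33 to 0.27 for NRCWE-030, against -0.87 to 1.06 without the slide.

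Members varied together among mice of the same group. Over the 69 arrays, after the group means were taken out, 34 of the 36 pairs of members had a positive Pearson correlation with an adjusted p below 0.05 (two-sided permutation test, 100000 shuffles within groups, adjusted over the 36 pairs), and 35 by Spearman. The arrays are separate mice, but they share slides and scan days. The share of all gene pairs that would pass this threshold was not computed. The 4 secretory genes other than Scgb1a1 formed the tightest set, with r from 0.681 to 0.908. Scgb3a1 followed Muc5b with r = 0.904 (Spearman 0.892) and Bpifa1 with r = 0.892 (Spearman 0.884), each with a permutation p of 1e-05, the smallest these shuffles can give, and an adjusted p of 1.89e-05. Without the 2 arrays farthest from the Scgb3a1 median these were 0.896 and 0.883. Within each of the 7 scan days of 6 or more arrays, r was at least 0.749 for Scgb3a1 with Muc5b and at least 0.767 for Scgb3a1 with Bpifa1. Among the ciliated genes, Tekt1 followed Rsph1 with r = 0.823 (Spearman 0.804) and Foxj1 with r = 0.793 (Spearman 0.821), and within scan days r was at least 0.727 and 0.583. Other pairs were less even across scan days, with the lowest at r = -0.76 for Bpifa1 with Dnah5, whose median over the 7 scan days was 0.6. The bright Dnah5 probe followed Foxj1 more closely than the median over Dnah5 probes did, with r = 0.864 against 0.663. The 2 Tekt1 probes differed too. With Rsph1, r was 0.539 for A_51_P328889 and 0.884 for A_51_P328890, and with Foxj1 it was 0.839 and 0.645.

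Secretory and ciliated genes were also linked to each other. The 16 pairs of 1 ciliated gene and 1 secretory gene other than Scgb1a1 had r from 0.482 to 0.742, with all 16 adjusted p-values below 0.05, and the highest was Muc5b with Tekt1 (Spearman 0.756, adjusted permutation p = 1.89e-05). By probe of Tekt1, r with Muc5b was 0.569 for A_51_P328889 and 0.743 for A_51_P328890. The bright Dnah5 probe had r = 0.862 with Muc5b. Scgb1a1 was the loosest member, with r from 0.156 (Muc5ac, permutation p = 0.261) to 0.427 (Tekt1, adjusted permutation p = 0.00396). With the slide removed, all of its pairs rose to between 0.391 and 0.687, and the median over all 36 pairs from 0.579 to 0.701. In the Cy5 channel alone its r with Dnah5 (0.0387), Bpifa1 (0.105), Muc5ac (0.159), Foxj1 (0.19) and Scgb3a1 (0.198) did not pass at 0.05. Its r with Muc5b (0.305), Rsph1 (0.384) and Tekt1 (0.391) did. The share of probes well above background in lung, a measure of array quality, moved with 4 of the 9 members: r was 0.597 for Foxj1 and 0.624 for Dnah5 (adjusted permutation p = 4.5e-05 for both, over 9 genes), 0.43 for Tekt1 (adjusted permutation p = 0.00108) and 0.392 for Scgb1a1 (adjusted permutation p = 0.0034). It was 0.214 for Bpifa1 and 0.123 for Muc5b, with adjusted permutation p of 0.159 and 0.402. Its part in the correlations was not tested.

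**Figure D4:**
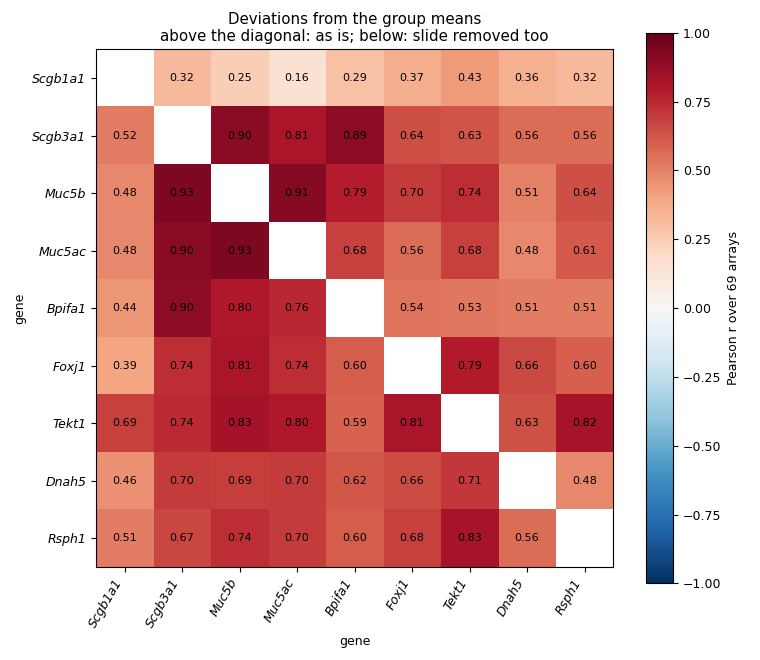
Pearson r between the deviations of each pair of genes from their group means over 69 arrays, above the diagonal as measured and below it with the slide removed. The block of Scgb3a1, Muc5b, Muc5ac and Bpifa1 is the darkest, and the Scgb1a1 row is the palest above the diagonal.

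The genes most like Foxj1 among the other 18659 were, by Pearson r of the deviations over 69 arrays and as a description, Tmem212 (0.921), Ccdc78 (0.911), Fank1 (0.905), Ptprz1 (0.896) and 1700024G13Rik (0.894), and with the slide removed these stayed between 0.857 and 0.905. Those most like Scgb1a1 were Plac9a (0.915), Clic3 (0.898), Gpx3 (0.807), Fmo1 (0.794) and Nkx2-1 (0.786). With the slide removed their r with Scgb1a1 dropped to 0.61 for Plac9a, 0.217 for Clic3, -0.0959 for Gpx3, 0.147 for Fmo1 and 0.157 for Nkx2-1. The likeness to Scgb1a1 therefore lay mostly between slides, and that to Foxj1 within them.

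Many, but not all, other genes of the same cells moved with the members. Of 55 further axoneme genes with a value, 51 correlated positively with Foxj1 and 1 negatively at an adjusted permutation p below 0.05 (over 447 relations of marker genes with Scgb1a1, Bpifa1 or Foxj1), with a median r of 0.713, beside -0.0147 over all genes. The negative gene was Spag6 (r = -0.339). For this list and the lists below, the share of all genes that would pass the threshold was not computed. The median r over all genes was -0.0174 with Bpifa1 and -0.0059 with Scgb1a1. Of 8 cilium transcription factors, 4 correlated positively and 1 negatively with Foxj1, with a median r of 0.274. Of 18 further secretory genes, 11 correlated positively with Bpifa1, led by Reg3g, an antimicrobial lectin (r = 0.915, Spearman 0.923, adjusted permutation p = 4.14e-05), Sult1d1 (0.82), Bpifb1 (0.812) and Ltf, lactoferrin (0.788). The club cell enzymes Cyp2f2 (0.209) and Cbr2 (0.149) did not pass that threshold with Bpifa1, whereas with Scgb1a1 they had r = 0.604 and 0.638, all with the slide left in. They were among only 3 of the 18 that passed with Scgb1a1 (median r 0.205), while 15 of the 18 passed with the ciliated gene Foxj1 (median r 0.607, against 0.543 with Bpifa1). With the slide removed the median r over the 18 was 0.446 with Scgb1a1, 0.722 with Foxj1 and 0.576 with Bpifa1. Of 8 goblet cell genes, 5 correlated positively with Bpifa1, among them Agr2 (0.776) and Clca1 (0.699), 4 with Foxj1 and 0 with Scgb1a1.

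Markers of other tissue moved with the same mice. All 6 heart muscle markers correlated with Bpifa1, with r from 0.563 to 0.656, and with Foxj1, with r from 0.458 to 0.635, all 12 adjusted permutation p-values below 0.05. Tnni3, the heart troponin I, had r = 0.656 with Bpifa1 (0.65 with the slide removed, 0.649 without the 2 farthest arrays, adjusted permutation p = 4.14e-05). All 6 airway smooth muscle markers behaved likewise, with r from 0.451 to 0.642 for Bpifa1 and from 0.421 to 0.658 for Foxj1. The mean log2 ratio over the 6 heart muscle markers ran from 0.19 to 5.02 over the 69 arrays, and group means from 0.79 to 2.92. In lung, 5 of the 6 markers were well above background on all 69 arrays. Of the 10 cartilage markers Chad had r = 0.834 with Foxj1 and 0.636 with Bpifa1, but the median over the list was -0.0239 with Foxj1, and 2 of the 10 were well above background on no array. Alveolar type 2 markers went with Bpifa1 in no case, with r from -0.176 to -0.07 for the 6 genes, and of the 5 alveolar type 1 markers only Clic5 passed, at r = -0.417 (adjusted permutation p = 0.00251). With the slide removed the median r of the type 2 markers with Bpifa1 was -0.327. With Foxj1 the 6 type 2 markers had r from 0.0951 to 0.44, of which 1 passed, and with Scgb1a1 2 of 6 type 2 and 3 of 5 type 1 markers passed. Heart and smooth muscle markers passed with Scgb1a1 in 0 of 12 cases. These Scgb1a1 counts are with the slide left in, and its removal changed the pattern. The median r with Scgb1a1 went from 0.153 to 0.54 for heart muscle and from 0.174 to 0.474 for smooth muscle. For type 2 markers it went from 0.218 to -0.0589, and for type 1 from 0.339 to -0.256. The part of heart muscle, smooth muscle and other tissue in the spread of the airway genes was not tested.

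**Figure D5:**
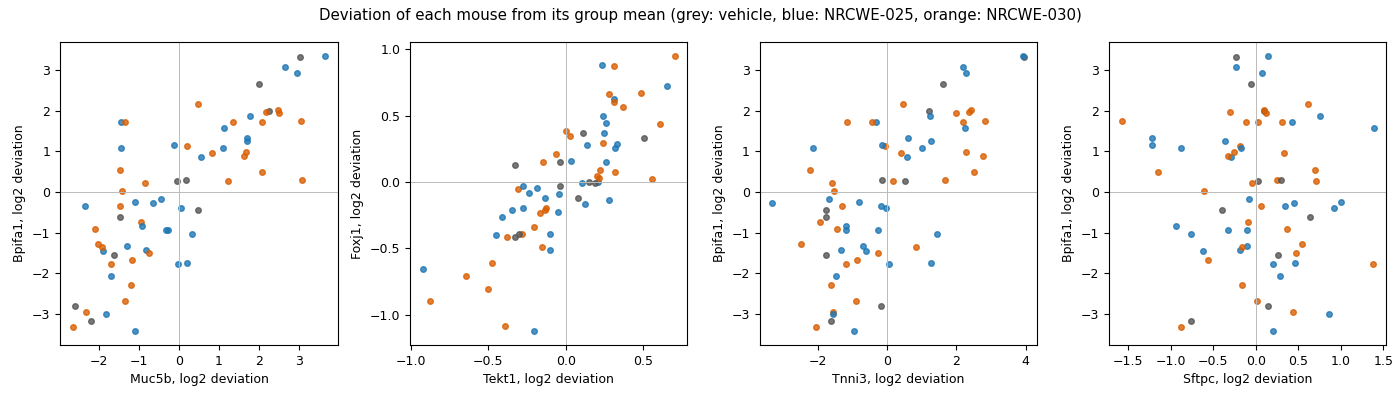
Deviation of each mouse from its group mean (log2 units) for Bpifa1 against Muc5b, Foxj1 against Tekt1, Bpifa1 against the heart muscle gene Tnni3 and Bpifa1 against the alveolar gene Sftpc. The first 3 panels slope upward (r = 0.785, 0.793 and 0.656) and the last does not (r = -0.0719), with vehicle and treated mice mixed in each.

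The wider gene lists gave no calls against vehicle either. In all 15 contrasts of 1 group or effect with another, 0 of 55 axoneme genes, 0 of 18 further secretory genes, 0 of 8 goblet cell genes and 0 of 8 cilium transcription factors were called (limma). The median difference over the axoneme genes after NRCWE-025 at day 1 was -0.40 at 18 µg, -0.10 at 54 µg and -0.35 at 162 µg, beside -0.0001 over all genes at 162 µg. Of the 55, 16, 0 and 14 had an unadjusted p below 0.05, beside 5.11%, 6.53% and 12.3% of all genes. After 162 µg of NRCWE-030 at day 1 the median was -0.28, with 7 of 55, near the 12.9% of all genes, and at day 28 it was 0.06 and -0.0003 after 162 µg of NRCWE-025 and NRCWE-030. In the test of whether the effect of 162 µg of NRCWE-025 differed by day, the axoneme median was -0.42, with 6 of 55 at unadjusted p below 0.05, beside 1966 of the 18660 genes. The further secretory genes had medians of -0.25 and -0.24 after 162 µg of NRCWE-025 and NRCWE-030 at day 1, with 1 and 4 of 18 at unadjusted p below 0.05, beside the same 12.3% and 12.9%. Beside them, the heart muscle list had median differences after NRCWE-025 at day 1 of -0.58 at 18 µg, -0.25 at 54 µg and -1.42 at 162 µg, and of -0.48 after 162 µg of NRCWE-030, also with 0 of 6 called. In the test over the 14 groups, which called 8.35% of all genes, 7 of 55 axoneme genes passed, and the 6 with the smallest p were Tekt2, Tppp3, Ak8, Gas8, Rsph3a and Drc1, with adjusted p from 0.00235 (Tekt2) to 0.0426 (Drc1) by limma. The cilium factor Rfx2 also passed (adjusted p = 0.00704 by limma), and 0 of 18 secretory and 0 of 8 goblet cell genes did.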

How the data were processed

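Lung RNA of 69 mice (Cy5) was hybridised with a common reference RNA (Cy3), without dye swap, to Agilent Whole Mouse Genome arrays. The authors deposited spot and background intensity values per colour, scanner flags and a log10 ratio from Agilent Feature Extraction 11.0.1.1, and a table of normalized log2 values whose processing was matched here by loess without background correction (median r = 0.9964, slope 0.993). That table and the log10 ratio were used as alternatives. Groups were taken from the labels.

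Local backgrounds marked as outliers were replaced by the array median, and intensities were corrected with normexp (offset 50) and loess within arrays (limma 3.58.1, R 4.3.3), with control spots given no weight and outlier spots left out. Of 41174 probes, 66.8% had a RefSeq symbol. Probes were averaged by their median, then probes of 1 gene by their median, and 93 genes without a value on some array were left out. Comparisons of groups used limma with Benjamini-Hochberg adjustment over 18660 genes, and correlations used deviations from group means. The share of probes well above background in Cy5 was 49.1% to 72.8% (median 62.1%), with no saturated spot. Replicate 5 of the group given 18 µg of NRCWE-030 (day 28) stood apart and was kept. Its share in Cy3 was 43.63%, and its match to the authors' normalized values had r = 0.9217 and slope 0.8653. It held the lowest Scgb3a1 and Dnah5 values of all arrays. The number of arrays limits the precision. The tests were checked on simulated data with arrays drawn independently and no slide effect, so that check does not cover slide effects.

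The alternatives were other background corrections, normalizations, probe rules, slide and scan day as blocks, the unmoderated test, and each array left out. The probe with the highest mean signal, and scan day removed from the correlations, were added after seeing the data. The genes named in the text were the members, the 5 genes most like Scgb1a1 and Foxj1, and at most 6 called genes of each list, while the marker genes named beside correlations were picked after their values were seen. The members and lists were chosen with earlier results of these data known. The RefSeq tables (GRCm38.p6) gave gene names and promoters.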

Additional observations from a re-analysis of the deposited data

Results flagged for a closer look

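Of 126 checks of a gene in a group for a mouse far from the others (Dixon's test at the 95% level), 10 stood out, and chance marks about 5%. Replicate 2 of the group given 18 µg of NRCWE-025 at day 1 accounted for 5 of them, all high. Its log2 ratio was 6.025 for Scgb3a1 (2.824 to 3.672 in the other mice), 5.423 for Muc5b (0.492 to 1.455), 0.985 for Muc5ac (0.043 to 0.185), 5.364 for Bpifa1 (0.682 to 1.754) and 1.066 for Dnah5 (0.204 to 0.447). Muc5ac was also high at 1.009 in replicate 3 of the group given 18 µg of NRCWE-030 at day 1 (0.053 to 0.327) and at 1.002 in replicate 1 of that given 18 µg of NRCWE-030 at day 28 (0.067 to 0.201). Foxj1 was high at 3.58 in replicate 1 of the 4 mice given 162 µg of NRCWE-025 at day 28 (3.045 to 3.131), and Dnah5 at 0.683 in replicate 2 of those given 162 µg of NRCWE-025 at day 1 (0.154 to 0.214). The only low one was Scgb3a1 at 2.337 in replicate 2 of the day 28 vehicle group (4.996 to 6.071).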

How the results depend on the processing

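In 285 of 286 pairs of a comparison and a processing alternative, 0 members were called, the unmoderated test included. The exception was the test over the 14 groups with the Cy5 channel alone, which called 1 member, Tekt1. Leaving out 1 array gave 0 called members in 727 of 730 pairs, with a range of 0 to 1 in the test over the 14 groups, where the 3 exceptions were Rsph1 without replicate 2 of the group given 18 µg of NRCWE-025 (day 1), Rsph1 without replicate 3 of that given 18 µg of NRCWE-030 (day 1) and Tekt1 without replicate 1 of that given 162 µg of NRCWE-030 (day 1). None of the 36 effects at 162 µg was called under an alternative, and 13 kept their sign under all alternatives other than leaving out an array. The Bpifa1 difference after NRCWE-025 at day 1 ran from -2.67 (Cy5 channel alone) to -0.23 (scan day as a block), and that of Muc5b after NRCWE-030 at day 1 from 0.51 to 2.77 (slide as a block). After NRCWE-025 at day 1, Tekt1 ran from -0.96 to -0.04 and Foxj1 from -1.004 to -0.11. The cause was not tested. Of the 36 pairs of members, 34 correlated in the main setting and 31 to 36 under the alternatives. The 31 came from the Cy5 channel alone, where every pair that did not pass held Scgb1a1. No paired analysis was possible because the replicate numbers were given in accession order and pair no mice. Dim reference signal limits Bpifa1, Muc5b, Rsph1, Muc5ac and 1 probe of Tekt1 and all probes of Dnah5, and dim lung signal limits the Muc5ac and Dnah5 values. A reference value (the Cy5 value minus the log ratio) that varied between arrays also limits Scgb1a1, Scgb3a1 and Bpifa1.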
